A study of Mus musculus with 6 samples.

Results

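The tuft cell genes are 10 genes given by symbol, namely Pou2f3, Gfi1b, Trpm5, Dclk1, Avil, Sh2d6, Il25, Ptgs1, Alox5 and Alox5ap. Of these, 9 were rows of the deposited count table, which holds 23393 named genes. Sh2d6, which encodes an adaptor with an SH2 domain, had no row under that symbol and was not analysed here. Small intestinal tumours of C57BL/6 mice positive for Villin-Cre with floxed alleles of both PKC lambda and PKC zeta (DKO tumour, n = 3) were set against small intestine of Cre-negative mice with the same floxed alleles (WT intestine, n = 3), all 12 weeks old. Villin drives the recombinase in intestinal epithelium only, so stromal and immune cells of the tumours keep both genes. Cre, the deletion and the tumour state changed together between the groups and cannot be told apart, and the labels do not say whether a library is 1 tumour or several pooled. The p-values measure the spread between these libraries.

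Tuft cells are rare chemosensory cells of the gut epithelium, with a tuft of long microvilli facing the lumen. They use the signalling chain of taste cells, which runs from G protein-coupled receptors through phospholipase C and released calcium to the cation channel TRPM5. Succinate from protists is among the signals they sense. Interleukin 25 and cysteinyl leukotrienes released by tuft cells act on type 2 innate lymphoid cells. Interleukin 13 from the lymphoid cells in turn increases tuft and goblet cell numbers. POU2F3 is the transcription factor on which the lineage depends.

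Totals over named genes ranged from 12491561 to 15105393 counts in DKO tumours and from 12785595 to 15799269 counts in WT intestine. Levels are CPM on the TMM scale of edgeR, that is, counts scaled to a common library size. Of the targeted genes, Prkcz was at 14.7 to 19.3 CPM in DKO tumours and 60.8 to 70.1 CPM in WT intestine, whereas Prkci was at 80.3 to 103 CPM in tumours and 53.3 to 80.7 CPM in WT intestine (adjusted p = 0.134). The floxed exons are not named in the labels and whole-gene counts do not separate them, so the Prkci level does not check its deletion. The name of the deposited sheet speaks of normal DKO tissue, whereas its columns carry the names of the tumour samples, and the columns were followed. Tests used genes reaching 10 counts in no fewer than 3 libraries and the quasi-likelihood test of edgeR, which left 13866 genes and 7 of the members. At a Benjamini-Hochberg adjusted p under 0.05, 1911 of the tested genes (13.8%) fell and 2211 (15.9%) rose in tumours. Library totals in place of TMM scaling gave 1065 falls and 3779 rises and shifted the median log2 fold change of all genes by 0.26.

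Of the 7 tested members, 4 fell (Pou2f3, Trpm5, Dclk1 and Alox5), none rose, and 3 did not pass the threshold (Avil, Ptgs1 and Alox5ap). Over all tested genes, 13.8% fell and 15.9% rose. All 7 tested members reached the count minimum in each of the WT libraries. In the 4 that fell, every tumour was below every WT library, a separation found in 22.9% of all tested genes; none of the members was higher in every tumour, against 25.1% of tested genes. The median log2 fold change was -1.75 over the 7 tested members and 0.02 over all tested genes. In whole tissue, fewer tuft cells and less RNA per tuft cell cannot be told apart.

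Pou2f3, the lineage regulator (chromosome 9, 43123939 to 43210369, GRCm38), was at 0.953, 0.336 and 0.519 CPM across DKO tumours 1 to 3 and at 5.58, 2.28 and 2.53 CPM in WT intestine 1 to 3. These levels rest on 16, 5 and 7 counts in the tumours and 59, 29 and 39 counts in WT intestine. It fell by 2.47 on the log2 scale (SE 0.513, edgeR adjusted p = 0.0106), and the tumours and WT libraries did not overlap. The call held without any 1 of the libraries, with an adjusted p of 0.0105 to 0.0489. Gfi1b, a zinc finger repressor of the tuft and megakaryocyte lineages (chromosome 2, 28609450 to 28621982), had 2, 0 and 3 counts in DKO tumours and 7, 1 and 3 counts in WT intestine. It was below the count minimum of the test. Pooled over the libraries of a group, its tumour level was 0.389 of the WT level, with a 95% exact (Clopper-Pearson) interval of 0.106 to 1.22 that covers counting error only and includes no difference.

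Trpm5, the cation channel at the end of the taste cascade (chromosome 7, 143069153 to 143094642), was the member with the largest fold change of those tested. It was at 2.56, 0.470 and 2.37 CPM across DKO tumours 1 to 3 and at 20.9, 14.9 and 15.5 CPM in WT intestine 1 to 3. The tumour mean was 1.80 CPM (SD 1.16, n = 3) and the WT mean 17.1 CPM (SD 3.29, n = 3), the log2 fold change being -3.23 (SE 0.480, edgeR adjusted p = 0.00284). DKO tumour 2 held 2.75% of the WT mean, while DKO tumours 1 and 3 held 15.0% and 13.9%. The call held without any 1 of the libraries, with a log2 fold change between -3.59 and -2.77. Tssc4, a gene on the opposite strand that shares 220 exonic bases with Trpm5, was at 15.6 to 16.7 CPM in tumours and 13.2 to 21.1 CPM in WT intestine.

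**Figure D1:**
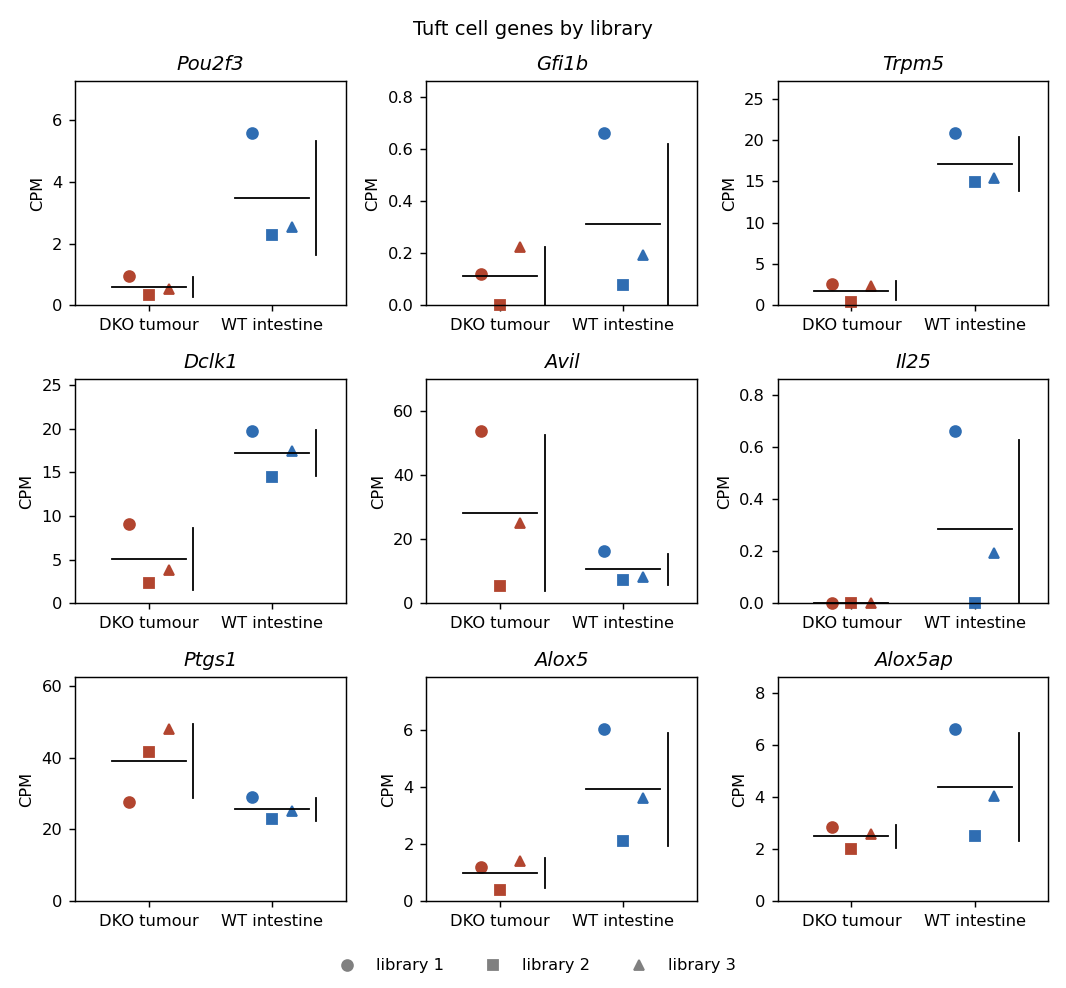
Level (CPM on the TMM scale, axes from 0) of the 9 tuft cell genes in each library, DKO tumours in red and WT intestine in blue; horizontal lines are means and vertical lines the SD over 3 libraries, drawn no lower than 0. Pou2f3, Trpm5, Dclk1 and Alox5 lie lower in every tumour, while Avil reaches 53.8 CPM in DKO tumour 1 and 5.57 CPM in DKO tumour 2.

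Among the cytoskeletal members Dclk1 fell, whereas Avil ran from below to above the WT levels. Dclk1, a microtubule-associated kinase used as the standard tuft cell stain (chromosome 3, 55242364 to 55539068), was at 9.11, 2.28 and 3.85 CPM across DKO tumours 1 to 3 and at 19.7, 14.5 and 17.5 CPM in WT intestine 1 to 3. It fell by 1.75 on the log2 scale (SE 0.446, edgeR adjusted p = 0.0224), and by 2.48 without DKO tumour 1, the highest tumour. Leaving out DKO tumour 3 ended the call (adjusted p = 0.0884), as did leaving out WT intestine 1, 2 or 3 (0.0557, 0.0519 and 0.0563).

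Avil encodes advillin, an actin-binding protein of the gelsolin and villin family found in tuft cells and sensory neurons (chromosome 10, 127000709 to 127020994). Its level was 53.8, 5.57 and 25.0 CPM across DKO tumours 1 to 3 and 16.3, 7.24 and 8.38 CPM in WT intestine 1 to 3. DKO tumours 1 and 3 were above every WT library and DKO tumour 2 was below every WT library, so the groups overlapped. The log2 fold change was 1.42 (SE 0.696, edgeR adjusted p = 0.160). It was 1.91 without DKO tumour 2, which passed the threshold (adjusted p = 0.0180), and 0.54 without DKO tumour 1 (adjusted p = 0.528). Tsfm, whose exons share 165 bases with those of Avil on the opposite strand, was at 19.0 to 22.3 CPM in tumours and 15.0 to 21.4 CPM in WT intestine. Of 9 tested markers of enteric neurons and glia, 3 rose and none fell, and the summed level of the 10 listed was 26.6 to 41.5 CPM in tumours and 20.9 to 27.8 CPM in WT intestine (Gfap, among those that rose, passed the count minimum through the tumours only); their part in the Avil level was not tested.

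Il25, the tuft cell cytokine that activates type 2 lymphocytes (chromosome 14, 54932695 to 54935837), had 0 counts in each of the DKO tumours and 7, 0 and 3 counts in WT intestine 1 to 3. Pooled over each group, it was at least 3.89-fold lower in tumours when 3 counts per group are taken as the floor and the WT count as exact. With counting error on both sides, the 95% exact upper limit of its tumour level was 0.382 of the WT level. A WT library without a count means that the groups overlapped, and in a fit with no count minimum the adjusted p of edgeR was 0.113.

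The eicosanoid enzymes differed among themselves. Alox5, the 5-lipoxygenase that begins leukotriene synthesis (chromosome 6, 116410077 to 116461178), was at 1.19, 0.403 and 1.41 CPM across DKO tumours 1 to 3 and at 6.05, 2.12 and 3.64 CPM in WT intestine 1 to 3. It fell by 1.96 on the log2 scale (SE 0.524, edgeR adjusted p = 0.0267) with no overlap between the groups. Leaving out DKO tumour 2 or 3 ended the call (adjusted p = 0.0571 and 0.0557), as did leaving out WT intestine 1 or 3 (0.0677 and 0.0581). Alox5ap, the membrane protein that presents arachidonic acid to 5-lipoxygenase (chromosome 5, 149264767 to 149288153), was at 2.86, 2.01 and 2.59 CPM in tumours and at 6.61, 2.52 and 4.03 CPM in WT intestine. WT intestine 2 lay below DKO tumours 1 and 3, and the log2 fold change was -0.80 (SE 0.371, adjusted p = 0.138).

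Ptgs1, the constitutive cyclooxygenase COX-1 (chromosome 2, 36230426 to 36252272), was at 27.8, 41.5 and 48.0 CPM across DKO tumours 1 to 3 and at 29.1, 22.8 and 25.1 CPM in WT intestine 1 to 3. DKO tumours 2 and 3 were above every WT library, while DKO tumour 1 lay within their range. The log2 fold change was 0.61 (SE 0.215, edgeR adjusted p = 0.0662). It passed the threshold under library totals (0.87, adjusted p = 0.0143), under upper-quartile factors (0.69, adjusted p = 0.0387) and without DKO tumour 1 (0.81, adjusted p = 0.0101).

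**Figure D2:**
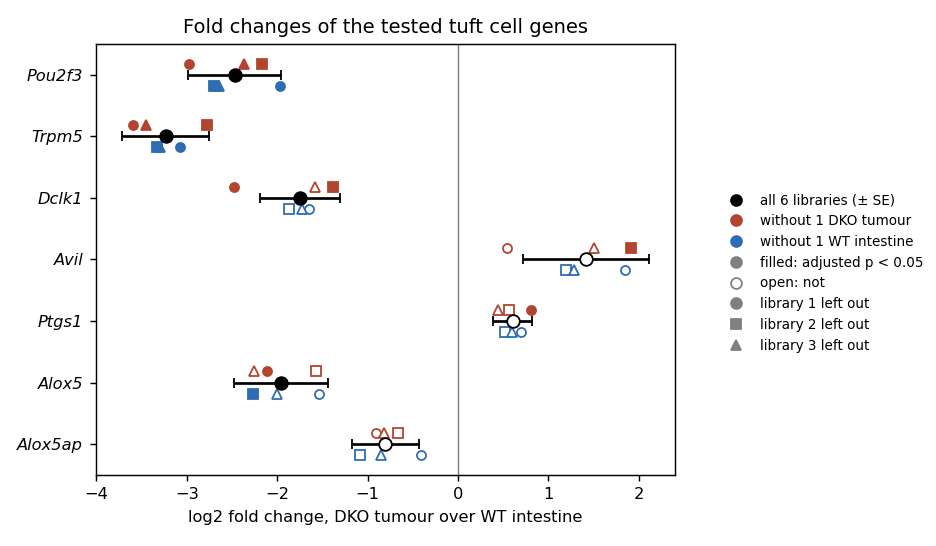
Log2 fold change (DKO tumour over WT intestine) of the 7 tested tuft cell genes with all 6 libraries (black, bars are the SE) and with 1 library left out (red, a tumour; blue, a WT library); filled points have an adjusted p under 0.05. Trpm5 and Pou2f3 are filled throughout, the Dclk1 and Alox5 points are open in 4 refits each, and Avil moves between 0.54 and 1.91.

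Alox5 and Alox5ap are also expressed by leukocytes, and Ptgs1 by platelets, endothelium and fibroblasts. Of 7 tested neutrophil markers 5 rose, and the summed level of the 8 in the table was 51.5 to 72.2 CPM in tumours and 18.9 to 43.0 CPM in WT intestine, with Mmp8 at 0 in WT intestine. S100a8, S100a9 and Mmp8 passed the count minimum through the tumours only, so a rise was the only call open to them. Of 9 macrophage markers 3 rose, with sums of 196 to 217 CPM in tumours and 162 to 205 CPM in WT intestine. Of the 2 tested mast cell markers Mcpt2 rose; the 10 listed summed to 8.79 to 41.6 CPM in tumours and 1.89 to 6.43 CPM in WT intestine, with Ms4a2 at 0 in the tumours and Tpsab1 and Cma1 at 0 in WT intestine. Of the 2 tested B cell markers Cd79a rose, and the 4 listed summed to 7.05 to 13.5 CPM in tumours and 6.49 to 7.18 CPM in WT intestine.

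For Ptgs1, 5 of 6 fibroblast markers rose, with sums of 848 to 1241 CPM in tumours and 271 to 405 CPM in WT intestine. Of 5 endothelial markers 3 rose (78.0 to 116 CPM in tumours, 41.5 to 59.1 CPM in WT intestine). Of the 2 tested platelet and erythroid markers Pf4 rose, and the 8 listed summed to 6.58 to 8.596 CPM in tumours and 3.90 to 5.58 CPM in WT intestine. The part of these cells in the levels of Alox5, Alox5ap and Ptgs1 was not tested.

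Tuft cells are epithelial, so the members were also read against the epithelial adhesion gene Epcam in the same library, a ratio that needs no scaling between libraries. Epcam itself was at 1774 CPM (SD 124, n = 3) in tumours and 2574 CPM (SD 295, n = 3) in WT intestine (adjusted p = 0.0723). Per 10000 Epcam counts, Trpm5 had 14.1, 2.52 and 14.5 counts in DKO tumours 1 to 3 and 73.6, 56.8 and 68.5 counts in WT intestine 1 to 3. Dclk1 had 50.01, 12.2 and 23.6 counts in tumours and 69.6, 55.0 and 77.4 counts in WT intestine, and Pou2f3 had 5.23, 1.80 and 3.18 counts in tumours and 19.6, 8.67 and 11.2 counts in WT intestine. The groups stayed apart for these 3 genes. For Alox5 they overlapped, at 6.54, 2.16 and 8.62 counts in tumours and 21.3, 8.08 and 16.1 counts in WT intestine. Alox5ap overlapped too, at 10.8 to 15.9 counts in tumours and 9.57 to 23.3 counts in WT intestine. So did Avil, at 295, 29.8 and 153 counts in tumours and 57.3, 27.5 and 37.1 counts in WT intestine. Ptgs1 was higher in every tumour, at 152, 222 and 294 counts against 103, 86.7 and 111 counts in WT intestine. The lower mean Epcam level in tumours raises their ratios. Of the 9 epithelial markers listed, Krt18 and Krt19 rose, Vil1 fell and 6 did not pass, with sums of 12608 to 18751 CPM in tumours and 13967 to 18045 CPM in WT intestine.

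The members were also set against Trpm5 in the same library. Trpm5 fell most, so a member that fell less, or did not fall, has a higher ratio in tumours by construction, and the ratios are given as a description. Per 100 Trpm5 counts, Dclk1 had 356, 486 and 163 counts in DKO tumours 1 to 3, against 94.6, 96.8 and 113 counts in WT intestine 1 to 3. Avil had 2100, 1186 and 1056 counts in tumours, against 77.8, 48.4 and 54.2 counts in WT intestine. Ptgs1 had 1084, 8829 and 2025 counts in tumours, against 139, 153 and 162 counts in WT intestine. Every tumour was above every WT library in these ratios and in those of Alox5 and Alox5ap, whereas the ratios of Pou2f3 overlapped, at 37.2, 71.4 and 21.9 counts in tumours and 26.7, 15.3 and 16.4 counts in WT intestine. The ratios of DKO tumour 2 rest on 7 Trpm5 counts.

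**Figure D3:**
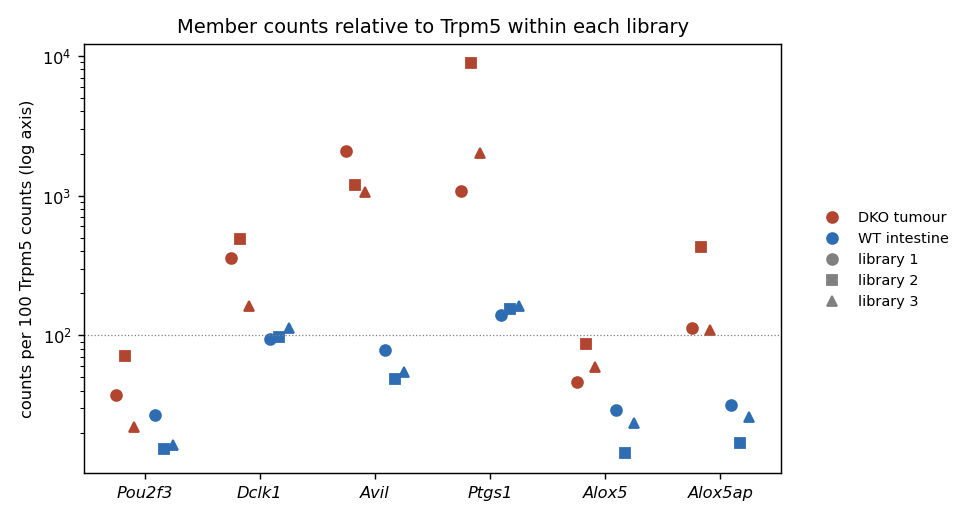
Counts of 6 members per 100 Trpm5 counts in the same library (log axis; red, DKO tumours; blue, WT intestine; marker shape gives the library number; dotted line at 100). All ratios but that of Pou2f3 are higher in every tumour, and that of Avil lies between 1056 and 2100 in tumours and between 48.4 and 77.8 in WT intestine.

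Libraries of the same group ranked alike across members. DKO tumour 2 was the lowest tumour for 7 of the 8 members with any tumour count, the exception being Ptgs1. WT intestine 1 was the highest and WT intestine 2 the lowest WT library for all 9 members, and under library totals for 7 and 9 of them. Per kilobase of annotated exon, the mean WT level was 6.61 CPM for Ptgs1, 3.13 for Avil, 3.09 for Alox5ap, 2.67 for Trpm5, 1.13 for Dclk1, 1.12 for Pou2f3, 0.959 for Alox5, 0.268 for Il25 and 0.170 for Gfi1b. The SDs of Avil (1.44) and Alox5ap (1.46) cover the distance to Trpm5, and the SDs of Pou2f3 (0.594) and Alox5 (0.482) exceed the distances among Dclk1, Pou2f3 and Alox5. In tumours the order was Ptgs1 at 10.1 (SD 2.66), Avil at 8.28 (SD 7.14), Alox5ap at 1.75, Dclk1 at 0.332, Trpm5 at 0.281, Alox5 at 0.244 and Pou2f3 at 0.195 CPM per kilobase, then Gfi1b at 0.0622 and Il25 at 0. From Dclk1 to Pou2f3 neighbours lay closer than their SDs.

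POU2F3 belongs to the POU factors, which recognise the octamer, so the promoters of the members that fell are shown beside those of members that did not. Promoter windows of 250 bases before the annotated start (RefSeq, GRCm38.p6) were at hand for 7 members, Dclk1 with an upstream and a downstream start that gene counts do not separate. The octamer ATGCAAAT, on either strand, was in none of these 8 windows and in 1.62% of 32536 windows of all genes. The form ATGCNAAT, which includes the octamer, was likewise in none, and in 2.89% of all windows. GAGGAAGT, a core for Spi-B, was in the Ptgs1 window (capitals) and in 2.45% of all windows. These matches describe letters and not binding.
Trpm5 (chr7:143094643-143094892, minus strand): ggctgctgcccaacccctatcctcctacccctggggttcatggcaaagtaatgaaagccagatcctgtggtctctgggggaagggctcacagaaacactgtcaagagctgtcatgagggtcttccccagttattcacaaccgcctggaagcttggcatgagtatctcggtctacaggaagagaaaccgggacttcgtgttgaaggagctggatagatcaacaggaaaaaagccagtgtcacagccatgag
Dclk1 upstream start (chr3:55242114-55242363, plus strand): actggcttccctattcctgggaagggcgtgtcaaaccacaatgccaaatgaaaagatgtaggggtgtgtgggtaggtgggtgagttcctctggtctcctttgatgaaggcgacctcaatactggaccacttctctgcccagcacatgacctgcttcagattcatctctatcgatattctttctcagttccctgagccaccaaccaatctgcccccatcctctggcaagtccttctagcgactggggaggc
Dclk1 downstream start (chr3:55461478-55461727, plus strand): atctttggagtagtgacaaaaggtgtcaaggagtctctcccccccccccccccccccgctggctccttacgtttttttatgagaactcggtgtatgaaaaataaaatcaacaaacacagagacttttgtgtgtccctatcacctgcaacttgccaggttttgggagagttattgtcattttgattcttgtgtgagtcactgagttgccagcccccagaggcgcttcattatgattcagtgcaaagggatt
Alox5 (chr6:116461179-116461428, minus strand): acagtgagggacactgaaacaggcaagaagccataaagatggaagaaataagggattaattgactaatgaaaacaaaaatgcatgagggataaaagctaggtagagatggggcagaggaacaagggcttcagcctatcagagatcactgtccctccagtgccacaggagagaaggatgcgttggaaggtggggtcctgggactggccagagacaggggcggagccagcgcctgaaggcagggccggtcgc
Avil (chr10:127000459-127000708, plus strand): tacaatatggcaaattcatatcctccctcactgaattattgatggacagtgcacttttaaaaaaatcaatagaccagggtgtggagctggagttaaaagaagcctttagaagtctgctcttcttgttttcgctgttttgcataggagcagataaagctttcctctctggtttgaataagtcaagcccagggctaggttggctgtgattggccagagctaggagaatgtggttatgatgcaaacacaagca
Ptgs1 (chr2:36230176-36230425, plus strand): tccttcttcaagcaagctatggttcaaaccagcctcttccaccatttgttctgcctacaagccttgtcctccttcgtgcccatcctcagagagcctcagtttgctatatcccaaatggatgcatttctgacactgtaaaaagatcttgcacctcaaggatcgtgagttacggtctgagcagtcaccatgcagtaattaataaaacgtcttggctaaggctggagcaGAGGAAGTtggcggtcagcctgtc

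A list of 11 held other genes of taste signalling, along with the receptor genes Sucnr1 and Ffar3. Of these 11, 7 were tested: 4 fell, none rose and 3 (Itpr3, Tas1r3 and Trpm4) did not pass. Among all tested genes, 13.8% fell and 15.9% rose. Sucnr1, the succinate receptor of tuft cells, had 0, 0 and 1 counts in DKO tumours and 38, 17 and 22 counts in WT intestine. Its pooled tumour level was 0.0111 of the WT level (95% exact interval 0.000278 to 0.0638, counting error only), with an edgeR adjusted p of 0.00261. Plcb2, the phospholipase C of taste signalling, was at 3.43 CPM (SD 0.981) in tumours and 9.09 CPM (SD 0.946) in WT intestine, the log2 fold change being -1.398 (SE 0.249, adjusted p = 0.00586). Ffar3, a receptor for short-chain fatty acids, had 4, 3 and 3 counts in tumours and 24, 10 and 15 counts in WT intestine and fell by 2.52 (adjusted p = 0.0128, and 0.0521 without DKO tumour 3). Plcg2, another phospholipase C, fell by 0.58 (adjusted p = 0.0356), a call lost under library totals (0.183), under upper-quartile factors (0.0656) and when any library except DKO tumour 1 was left out (0.0713 to 0.115). Sucnr1 and Ffar3 passed the count minimum through the WT libraries only, so a fall was the only call open to them. Trpm4, a channel close to Trpm5 with wide expression, was at 198 CPM (SD 48.1) in tumours and 187 CPM (SD 10.6) in WT intestine (adjusted p = 0.783). Gnat3, the taste G protein alpha subunit, was not tested and had 2, 0 and 0 counts in tumours and 1, 11 and 12 counts in WT intestine. Without DKO tumour 3 the falls numbered 2 of 7, and without WT intestine 1, 2 or 3 they numbered 1 of 5, 1 of 4 and 1 of 4 tested genes.

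A list of 21 further tuft cell markers moved mostly down, with 11 of 18 tested genes lower, 2 higher and 5 not past the threshold. The shares over all tested genes were 13.8% lower and 15.9% higher. Rgs13, a regulator of G protein signalling, was at 1.49, 0.134 and 0.741 CPM across DKO tumours 1 to 3 and at 12.4, 10.4 and 10.1 CPM in WT intestine, the log2 fold change being -3.75 (SE 0.534, edgeR adjusted p = 0.00242), or -4.64 without DKO tumour 1. Strip2 fell by 2.61 (SE 0.341, adjusted p = 0.00166), and Spib, an Ets factor of tuft, M and B cells, fell by 2.68 (SE 0.434, adjusted p = 0.00399). Siglecf, listed under its older symbol Siglec5 and shared with eosinophils, fell by 2.07 (SE 0.380, adjusted p = 0.00657). The calls of Rgs13, Strip2, Spib and Siglecf held in every refit. Ildr1 rose, at 18.7, 73.3 and 34.1 CPM in DKO tumours and 3.02, 3.07 and 3.18 CPM in WT intestine, higher by 3.76 on the log2 scale (SE 0.496, edgeR adjusted p = 0.00175) and by 3.10 without DKO tumour 2. Nrep rose too (by 1.23 on the log2 scale, adjusted p = 0.0236, or 0.0839 without DKO tumour 3). Chat, the acetylcholine-synthesising enzyme of tuft cells and neurons, was at 0.887 CPM (SD 0.0791) in tumours and 0.856 CPM (SD 0.240) in WT intestine (adjusted p = 0.893).

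**Figure D4:**
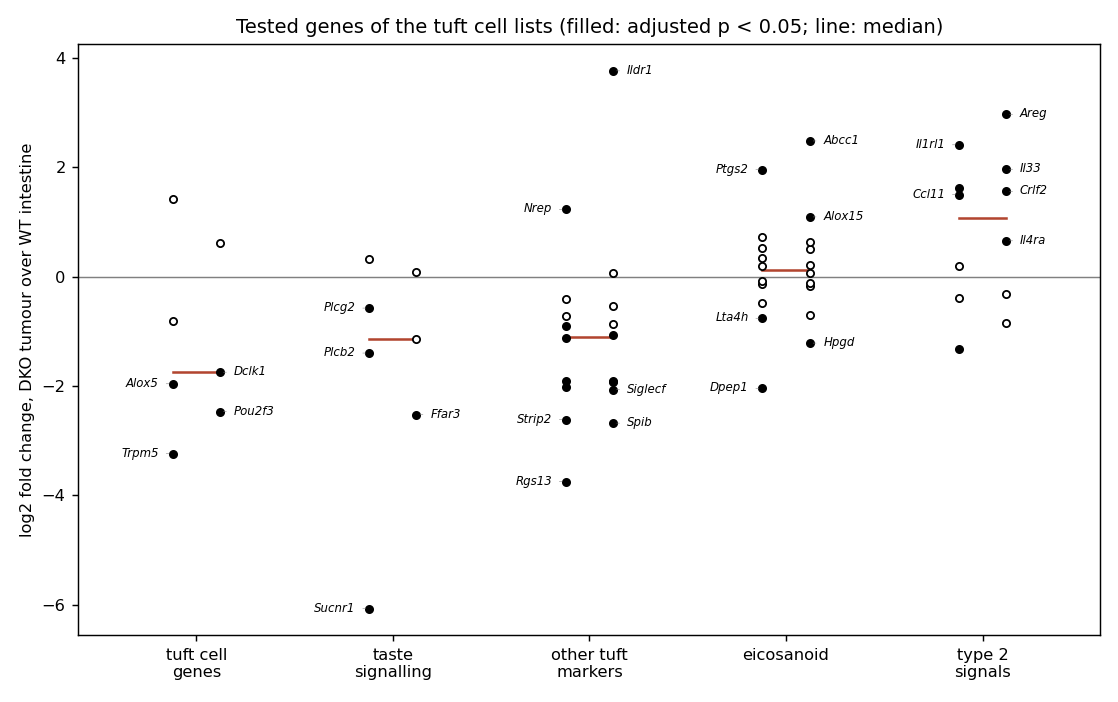
Log2 fold changes (DKO tumour over WT intestine) of the tested genes in 5 lists. Filled points have an adjusted p under 0.05, and those with names are described in the text. The line is the list's median. Medians are -1.75 for the tuft cell genes, -1.14 for taste signalling, -1.10 for other tuft markers, 0.13 for eicosanoid genes and 1.08 for type 2 signals.

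Of 20 tested genes of the wider eicosanoid pathway, 3 fell, 3 rose and 14 did not pass the threshold (median log2 fold change 0.13), shares near those over all tested genes (13.8% and 15.9%). Ptgs2, the inducible cyclooxygenase COX-2, was at 20.4, 33.8 and 18.2 CPM in DKO tumours and 3.12, 7.32 and 8.05 CPM in WT intestine, a rise of 1.95 on the log2 scale (SE 0.378, edgeR adjusted p = 0.00806). Abcc1, an exporter of leukotriene C4, rose by 2.48 (SE 0.238, adjusted p = 0.000547). Dpep1, a dipeptidase that converts leukotriene D4 to E4, fell by 2.04 (SE 0.257, adjusted p = 0.00143), Hpgd, which inactivates prostaglandins, by 1.22 (SE 0.191, adjusted p = 0.00357) and Lta4h, which makes leukotriene B4, by 0.76 (SE 0.141, adjusted p = 0.00670). Alox15, a 12/15-lipoxygenase, was at 1.83 CPM (SD 0.428) in tumours and 0.864 CPM (SD 0.167) in WT intestine (adjusted p = 0.0419), a call lost under DESeq2 (0.0803), with no count minimum (0.0609), with the replicate number as a block (0.0708) and when any library except WT intestine 1 was left out (0.0658 to 0.139). Ltc4s, the leukotriene C4 synthase, was at 3.35 CPM (SD 0.248) in tumours and 5.50 CPM (SD 2.65) in WT intestine, with an adjusted p of 0.163.

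Signals and receptors around the interleukin 25 circuit were higher in tumours in 7 of 12 tested cases and lower in 1, with 4 not past the threshold, against 15.9% higher and 13.8% lower over all tested genes. Fibroblasts and endothelium express some of these genes, and their markers were higher too, 5 of 6 fibroblast markers (848 to 1241 CPM in sum in tumours, 271 to 405 CPM in WT intestine) and 3 of 5 endothelial markers (78.0 to 116 CPM in tumours, 41.5 to 59.1 CPM in WT intestine). Their part in these levels was not tested. Il33, an alarmin released by damaged cells, was at 228, 180 and 223 CPM across DKO tumours 1 to 3 and 56.0, 55.2 and 50.8 CPM in WT intestine, a rise of 1.96 on the log2 scale (SE 0.145, edgeR adjusted p = 2e-04). Its receptor Il1rl1 rose by 2.41 (SE 0.243, adjusted p = 0.000633) and Crlf2, a receptor chain for TSLP, by 1.56 (SE 0.264, adjusted p = 0.00479). Areg, the EGF receptor ligand amphiregulin, was at 151 CPM (SD 47.0) in tumours and 19.6 CPM (SD 18.5) in WT intestine (2.96, adjusted p = 0.0126, and 4.03 without WT intestine 1). Ccl11, the eosinophil chemokine eotaxin, rose by 1.497 (adjusted p = 0.0132, and 0.0525 without DKO tumour 3), and Il4ra, the shared receptor chain for interleukins 4 and 13, by 0.65 (adjusted p = 0.0140, and 0.0644 without DKO tumour 3 or 0.0652 without WT intestine 2). The gene that fell was another chemokine, Ccl24, at 1.62 CPM (SD 0.577) in tumours and 4.07 CPM (SD 0.946) in WT intestine. Its log2 fold change was -1.33 (SE 0.338, edgeR adjusted p = 0.0222). That call was lost without DKO tumour 2 (0.0603), WT intestine 1 (0.0527) or WT intestine 2 (0.0688). The cytokines themselves could not be tested, with totals over all 6 libraries of 1 count for Il4, 2 for Il5 and 3 for Il13. Il17rb, the interleukin 25 receptor chain, was at 4.11, 0.537 and 2.37 CPM in DKO tumours and 5.10, 4.33 and 3.38 CPM in WT intestine (adjusted p = 0.290), with DKO tumour 2 the lowest library.

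The genes whose log2 level over the 6 libraries was most like that of Trpm5 were, among 10195 genes averaging 100 counts or more, Tonsl (Pearson r = 0.997), 9030617O03Rik (0.995), Nceh1 (0.993), Txndc16 (0.993) and Etv3 (0.993). All 5 fell, by 0.52 to 0.78 on the log2 scale, far less than Trpm5. The 6 libraries form 2 groups, so r mostly reads the difference between groups, and 297 genes exceeded an r of 0.95.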

How the data were processed

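Poly(A) RNA of small intestine or small intestinal tumour was sequenced as single-end reads after a directional library kit, per the labels' protocols. STAR, DESeq2 and the build mm10 are named, without roles, in the submitters' processing notes. Not given in the sources used here are the read counter, its annotation and its use of strand. Reads of genes that overlap on opposite strands cannot be told apart. The authors' deposited values are raw counts per gene symbol, 1 column per library; 27 rows with a spreadsheet date for a name (0.218% to 0.241% of a library) were left out.

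Members and lists were chosen with earlier results of these data known. Of 23393 symbols, 21751 (92.98%) matched GENCODE M21 (GRCm38), which gave coordinates and exon lengths; Siglecf and Adgre1 were read under older symbols. In R 4.3.3, counts were compared with edgeR 4.0.16 (TMM, glmQLFTest), after the procedure was tested on simulated data. SE is the log2 fold change over the root of its F statistic. Named list genes are up to 6 per list with the smallest adjusted p among those called; others named were chosen after their values were seen. Alternatives were DESeq2 1.42.0, library totals, upper-quartile or DESeq2 size factors for scaling, no count minimum or one of 50, a replicate block, and leaving out each library. Reads carried no molecular identifiers, so intervals and floors cover counting error only. Some genes of the lists are counted but not reported here by name.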

Additional observations from a re-analysis of the deposited data

How the results depend on the processing

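Trpm5 and Pou2f3 fell past the threshold under every alternative that tested them, and no tested member changed sign. Over all genes, 4122 were called with all 6 libraries and 1866 to 4275 without 1 library; the lowest counts were 1866 without DKO tumour 3, 2175 without WT intestine 2 and 2733 without DKO tumour 2. Called members numbered 4 with all libraries, 2 under the filter of 50 counts, which left 4 of them to test, and 2 to 5 without 1 library; the count was 2 without DKO tumour 3, WT intestine 1 or WT intestine 3. Called taste signalling genes numbered 4, 2 under the filter of 50 counts with 4 tested, and 1 to 4 without 1 library. Sucnr1 and Ffar3 dropped below the count minimum when a WT library was left out, while Plcg2 stayed tested and missed the threshold; without DKO tumour 3, Plcg2 and Ffar3 missed it. Counts of called genes in the other tuft marker, eicosanoid and type 2 lists stayed within 1.5 times; those of the remaining lists were not recomputed. The groups share replicate numbers, but no label says that a number marks a shared animal or batch, and same-numbered libraries deviated together by r = 0.015, 0.010 and -0.030. With the number as a replicate block, 3296 genes and 4 members were called. Low counts limit Gfi1b, Il25 and most of the taste receptor genes.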

Other observations

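Of 9 tested regulators of the secretory lineage, the branch of the gut epithelium that makes goblet, Paneth and enteroendocrine cells, 2 fell, none rose and 7 did not pass the threshold. Among all tested genes 13.8% fell and 15.9% rose, and 2 falls among 9 genes do not set this list apart. Atoh1, the master regulator of goblet, Paneth and enteroendocrine cells, was at 10.9, 18.6 and 8.82 CPM across DKO tumours 1 to 3 and 25.4, 25.5 and 24.4 CPM in WT intestine, a fall of 0.97 on the log2 scale (edgeR adjusted p = 0.0285). That call was lost under library totals (0.0753) and when any library except DKO tumour 2 was left out (0.0561 to 0.0909). Dll1, a Notch ligand of secretory progenitors, fell by 0.99 (SE 0.224, adjusted p = 0.0146). Sox9, a factor of crypt and tuft cells, was at 50.4 CPM (SD 16.1) in tumours and 33.4 CPM (SD 10.2) in WT intestine (adjusted p = 0.140), and Spdef, a goblet cell factor, at 22.6 CPM (SD 10.6) in tumours and 22.6 CPM (SD 2.99) in WT intestine.

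Avil and the calcium-binding protein gene S100b, with S100b singled out after its values were seen, were high in DKO tumours 1 and 3 and low in DKO tumour 2. S100b was at 11.5, 0.805 and 12.4 CPM across DKO tumours 1 to 3 and 0.945, 1.18 and 0.779 CPM in WT intestine (log2 fold change 3.08, SE 0.866, adjusted p = 0.0315). The glial gene Sox10 was at 0.357 to 0.667 CPM in tumours and 0.472 to 0.708 CPM in WT intestine. The genes most like Avil over the 6 libraries were Ugt1a7c (Pearson r = 0.996), 2210019I11Rik (0.991), Ces1f (0.990), Gsto1 (0.984) and Hsd17b13 (0.981), none of which passed the threshold. Hsd17b13 was at 104, 10.3 and 38.6 CPM across DKO tumours 1 to 3 and 38.8, 17.5 and 16.8 CPM in WT intestine.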
